A study of Mus musculus with 48 samples.

Results

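TS/A-E1 and 4T1 are mouse mammary carcinoma cell lines of BALB/c origin, both derived from tumors that arose spontaneously. The tumors grown from them were 8 of the 48 mammary tumors profiled, and were taken by title: 4 tumors named TS/A-E1 and 4 named 4T1. This pair of models was picked because both are BALB/c and because their overall profiles were close, so that closeness is no finding. Cells of each line were placed surgically into the mammary fat pad (number 4) of immunocompetent female BALB/c mice of 6 to 8 weeks. No drug, transgene or gene deletion is given for either group. Tumors were taken at a diameter of 0.5 to 1.0 cm, freed of surrounding and necrotic tissue and frozen, and 100 ng of RNA from each was hybridized to 1 Affymetrix array. The 4 tumors of a model came from 1 cell line, so that the spread between them is the spread between tumors of that line and not between independent cancers. Each tumor also held host cells, and in such bulk tissue fewer cells of a type cannot be told apart from less RNA per cell. The comparison asks how a pair of models that share strain, site and spontaneous origin differed in expression. The remaining 40 tumors belonged to 10 other models, 3 of them BALB/c.

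Wnt1 was taken as the marker of TS/A-E1 and Tslp as that of 4T1. Wnt proteins are secreted ligands that bind Frizzled receptors with Lrp co-receptors, stabilize β-catenin and so switch on target genes through Tcf and Lef factors. Wnt1 was first found as a gene activated by proviral insertion in mouse mammary tumors, and is nearly silent in the normal mammary gland. Tslp, thymic stromal lymphopoietin, is an epithelial cytokine that acts on dendritic cells and other immune cells through Crlf2 and Il7r, and is known for starting type 2 immune responses.

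The values are log2 expression on the scale the authors deposited, in which 1 unit is a 2-fold step. The median over all probe sets lay between 6.81 and 6.92 on the 8 arrays. The keratin gene Krt8 lay above 12.9 in every tumor of both models and Cdh1, which encodes E-cadherin, above 10.9. Both of these epithelial genes were thus well expressed, but not all such genes were. Elf5 (means 6.00 in TS/A-E1 and 6.14 in 4T1) and Pgr (5.93 and 5.92), for instance, lay below the array medians. The tumor 4T1 replicate 3 stood apart for B cell genes: its mean level over 7 of them was 9.34, against 5.56 to 5.58 in the other 4T1 tumors and 5.55 to 6.30 in the TS/A-E1 tumors. No B cell gene passed the test. Adipocyte genes varied widely within both models, from 6.93 to 9.69 in TS/A-E1 and from 6.95 to 8.92 in 4T1, and none of 7 passed. Without 4T1 replicate 3, 1 gene fewer was called among the Wnt target, intracellular Wnt transducer, junction, mesenchymal, fibroblast, interferon-induced, chemokine, glutathione and Hedgehog genes and the microRNA hairpins described below, and 2 fewer among the macrophage genes, while the other lists kept the same number of calls.

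Of 19938 genes, 3251 (16.3%) differed between the models by limma's moderated test at an adjusted p under 0.05, 1781 higher in TS/A-E1 (8.93% of all genes) and 1470 lower (7.37%). Without 4T1 replicate 3 the count was 2746, with a fit of the 8 tumors alone 5969, and without 9 tumors of any model that were rich in adipocyte or B cell transcripts 4931. The higher genes were 54.8% of those that passed, and 69.2% when each array was first centred on its median. Most differences were small: 537 genes (2.69%) passed and differed by over 2-fold, 219 higher and 318 lower, and 24 by over 8-fold, 11 higher and 13 lower. The 4 tumors of one model lay wholly above or below the 4 of the other for 6194 genes (31.1%), of which 3116 passed. The all-gene median difference was 0.03, against which the gene groups are read.

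Wnt1 was the gene with the largest rise in TS/A-E1. It measured 10.01, 10.12, 10.26 and 10.16 in the 4 TS/A-E1 tumors and 5.39, 5.21, 5.25 and 5.45 in the 4T1 tumors. All TS/A-E1 tumors were high by nearly 5 log2 units, and the groups were far apart. The means were 10.14 ± 0.10 and 5.33 ± 0.11 (SD, n = 4 each), a 28.1-fold difference. The other 10 models had means between 5.12 in 6DT1 and 5.31 in M6, so that TS/A-E1 was the single model with a high level. Because Wnt1 was picked for this pattern, the values are a description. The array reports no detection call here, and a fold against a level near 5 is limited by background signal.

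The other Wnt ligands mostly did not follow Wnt1. Of 19 ligands measured, Wnt1 and Wnt10a were higher (10.5% passing, against 16.3% of all genes), none was lower, and the median difference was 0.05. Wnt10a, a ligand active in skin appendage and mammary development, measured 10.72, 10.66, 10.65 and 10.44 in TS/A-E1 and 8.64, 8.81, 8.42 and 8.41 in 4T1. It was high in every TS/A-E1 tumor, with a log2 difference of 2.05 (SE 0.28, adjusted p = 6.5e-07), but HRM-1 tumors had a higher mean still, 10.86. Wnt10b, a neighbour of Wnt1 on its chromosome, had means of 6.56 in TS/A-E1 and 6.73 in 4T1 and did not pass (adjusted p = 0.26). Other neighbours of Wnt1, named after their values were seen, were slightly higher in TS/A-E1: Arf3 by 0.47 (adjusted p = 2.2e-06) and Prkag1 by 0.39 (adjusted p = 4.8e-06).

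Genes that receive or carry the Wnt signal were measured next. Of 20 genes for receptors and ligand secretion, 1 was higher and 3 were lower in TS/A-E1 (20% passing, close to the 16.3% of all genes), with a median of -0.18. The higher gene was Porcn, the acyltransferase that lipid-modifies Wnt proteins for secretion, at 10.55, 10.04, 10.18 and 10.31 in TS/A-E1 and 8.87, 9.60, 9.06 and 9.16 in 4T1 (log2 difference 1.09, SE 0.30, adjusted p = 0.0084). The lower ones were the receptors Fzd3 (-1.31), Fzd6 (-0.95) and Ryk (-0.41). None of 19 secreted modulators, the Dkk, Sfrp and Rspo families among them, passed. Sfrp2, a secreted antagonist, had the largest value of that group, 1.10, with an adjusted p of 0.23 and overlapping groups. Of 15 intracellular transducers 4 were lower and none was higher (26.7% passing, against 16.3% of all genes). These were Tcf7l1, a Tcf factor that mainly represses (-1.44), Btrc (-0.48), the β-catenin gene Ctnnb1 (-0.35) and Csnk1a1 (-0.19). Ctnnb1, Csnk1a1 and Ryk did not pass when arrays were centred on their medians, nor did Csnk1a1 in 7 of the 8 runs that each left out a tumor.

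Among 17 genes known as Wnt targets, 5 were higher in TS/A-E1 and 2 were lower, so that 41.2% passed against 16.3% of all genes, and the median was 0.10. Without 4T1 replicate 3, 4 were higher and 2 lower. In the other runs that left out a tumor 4 were higher too, except without TS/A-E1 replicate 2. Axin2, a feedback inhibitor widely used as a readout of β-catenin signalling, measured 8.78, 8.98, 9.07 and 9.08 in TS/A-E1 and 6.77, 7.30, 7.24 and 6.69 in 4T1. Every TS/A-E1 tumor exceeded every 4T1 tumor, and the log2 difference was 1.98 (SE 0.34, adjusted p = 4.3e-05), a 3.94-fold difference. Rnf43, a ubiquitin ligase that removes Frizzled from the surface, measured 8.15, 8.03, 8.04 and 8.32 against 6.81, 6.79, 7.08 and 6.72 (log2 difference 1.28, adjusted p = 0.00023). Bmp4, a growth factor of the TGF-β superfamily, was higher by 1.94 (adjusted p = 1.2e-05), Myc by 1.01 (adjusted p = 0.0028) and Twist1 by 0.56 (adjusted p = 0.048). The lower targets were Tnfrsf19 (-0.87) and Znrf3 (-0.47), a relative of Rnf43. Leaving out 4T1 replicate 4 left 1 lower target. Lef1 (-0.91) and Ccnd1 (-0.35), also target genes, had lower means in TS/A-E1 without passing (adjusted p = 0.22 and 0.21). Axin2 was not particular to TS/A-E1, since the F311 mean was 9.65.

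**Figure D1:**
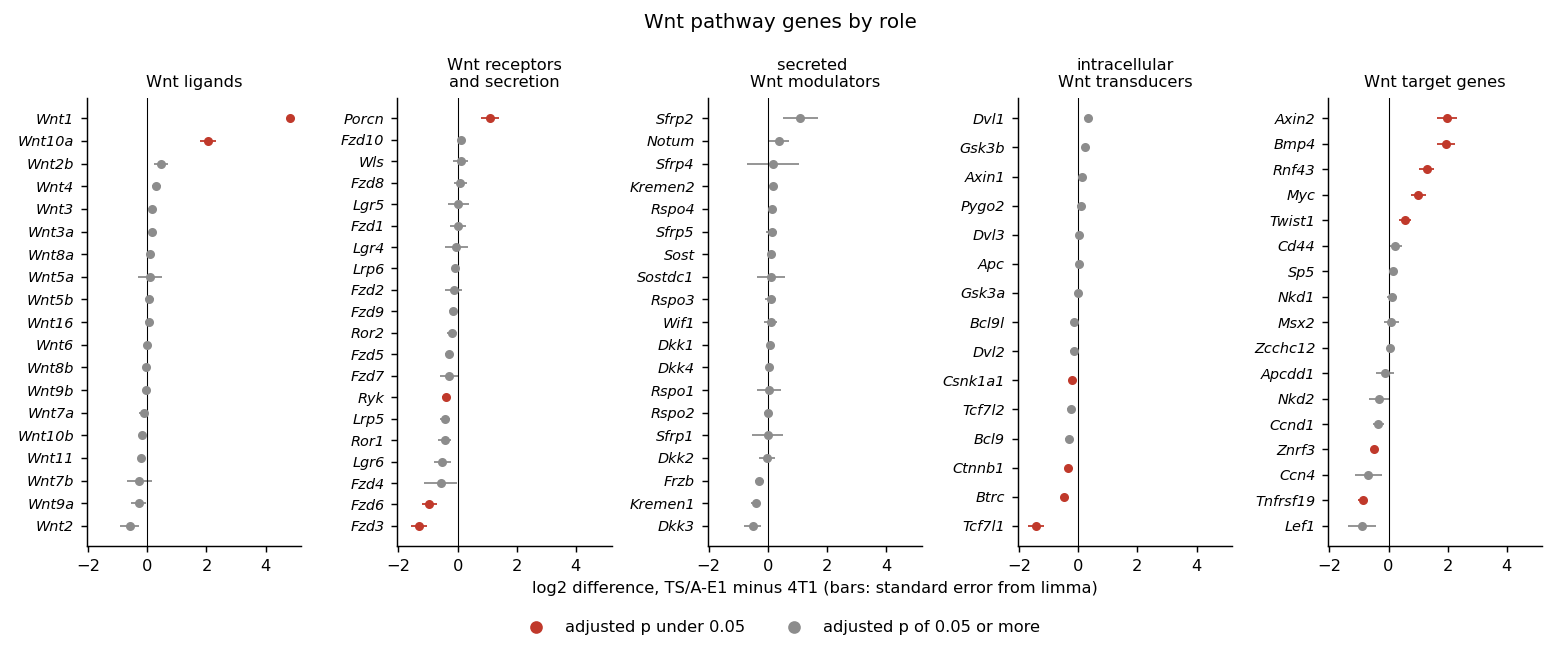
Log2 difference (TS/A-E1 minus 4T1, x axis) for each measured Wnt pathway gene, grouped by role in 5 panels, with standard errors from limma as bars and genes passing the test in red (n = 4 tumors each). Wnt1 at 4.81 stands alone, Wnt10a, Axin2 and Bmp4 lie near 2, and no secreted modulator is red.

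Tslp showed the opposite pattern. It measured 6.03, 5.65, 6.16 and 5.83 in TS/A-E1 and 10.22, 9.90, 10.32 and 9.81 in 4T1. All 4T1 tumors were high and the groups did not approach each other. The means were 5.92 ± 0.22 and 10.06 ± 0.25 (SD, n = 4 each), 17.7-fold higher in 4T1. In the other 10 models the means ran from 5.22 in EMT-6 to 5.96 in MVT-1, so that TS/A-E1 lay within the low range and 4T1 alone was high. This too is a description of a gene chosen for its pattern.

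Of 9 epithelial alarm cytokines and their receptors, Tslp and Il1a passed, both lower in TS/A-E1 (22.2%, against 16.3% of all genes). Tslp was picked as the marker of 4T1, so its part of that share was set in advance. Il1a, the gene for interleukin 1α, measured 7.76, 8.13, 8.41 and 7.95 in TS/A-E1 and 9.15, 10.07, 9.19 and 9.36 in 4T1 (log2 difference -1.38, SE 0.41, adjusted p = 0.014). Il1a did not pass without 4T1 replicate 2, or with only BALB/c models in the limma fit (adjusted p = 0.052). The Tslp receptor chain Crlf2 had a difference of -0.13 and the other alarm cytokines Il33 and Il25 of -0.08 and 0.12, none of which passed. The other receptor chain, Il7r, had a higher mean in TS/A-E1 (1.14), and did not pass either (adjusted p = 0.11). With only BALB/c models in the fit, 1 gene of this list was called higher.

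Of 14 type 2 cytokines, receptors and chemokines, 2 were lower in TS/A-E1 and none was higher, so that the share passing, 14.3%, was close to the 16.3% of all genes. Ccl17, a chemokine that attracts Th2 cells and is induced in dendritic cells by Tslp, measured 7.26, 7.27, 7.11 and 7.20 in TS/A-E1 and 9.26, 10.11, 9.11 and 8.86 in 4T1. All 4T1 tumors were higher, and the log2 difference was -2.12 (SE 0.48, adjusted p = 0.0013). Its level in 4T1 was not unique, with an MVT-1 mean of 9.68 beside a low Tslp mean there. Ccl24, an eosinophil attractant, differed by -1.67 (adjusted p = 0.034) and lost its call without any 1 of 7 of the tumors, all but 4T1 replicate 3. The cytokine genes Il4 (0.01) and Il5 (0.02) did not pass, nor did Il13.

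Several mast cell genes were higher in TS/A-E1. Of 15 genes of mast cells and eosinophils 7 were higher and none was lower (46.7% passing, against 16.3% of all genes), and the median was 0.71. Without 4T1 replicate 3 the count was 7 as well, and it ran from 5 to 8 when single tumors were left out. Mcpt4, a mast cell chymase, measured 9.75, 8.83, 10.12 and 10.14 in TS/A-E1 and 7.19, 6.79, 7.73 and 7.10 in 4T1. The groups did not overlap, and the log2 difference was 2.51 (SE 0.67, adjusted p = 0.0063). The tryptase gene Tpsab1 measured 10.51, 9.65, 10.91 and 11.03 against 8.24, 7.63, 8.61 and 8.63 (log2 difference 2.25, SE 0.30, adjusted p = 3.8e-07). TS/A-E1 replicate 2 was the lowest of its group for both genes, and 4T1 replicate 2 the lowest of the 4T1 tumors.

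Fcer1a, the α chain of the high-affinity IgE receptor, measured 6.69, 6.20, 6.96 and 7.32 in TS/A-E1 and 5.62, 5.53, 5.80 and 5.76 in 4T1 (log2 difference 1.12, SE 0.13, adjusted p = 1.7e-08). No other model had an Fcer1a mean above 5.78. Tpsab1 was also high elsewhere, with means of 10.10 in MVT-1 and 9.37 in EMT-6 beside 10.52 in TS/A-E1. For Mcpt4 the mean was 8.68 in E0771 and 9.71 in TS/A-E1. Tpsb2 (1.69), Mcpt1 (0.94), the chymase Cma1 (0.72) and the IgE receptor β chain Ms4a2 (0.21) also passed. Cpa3, the mast cell carboxypeptidase, did not overlap between the groups, with means of 10.59 and 8.75, but did not pass (adjusted p = 0.11). The eosinophil genes Siglecf (-0.13), Ccr3 (0.24), Epx (0.21) and Prg2 (-0.09) did not pass, nor did Kit (0.02), the mast cell growth factor receptor. Tpsab1 and Tpsb2 are near-identical copies, as are some Mcpt genes, so that their probe sets may share signal. No adipocyte or B cell gene passed between the models, and the ranges of their mean levels overlapped. Their standard errors were large, however, for instance 1.29 for Adipoq and 1.08 for Ms4a1. The part of host tissue in the mast cell values was not tested.

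**Figure D2:**
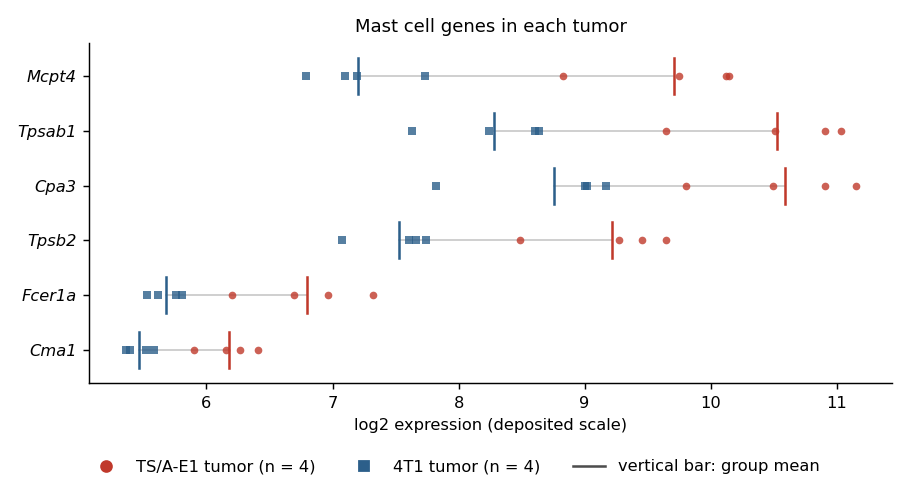
Log2 expression (x axis) of 6 mast cell genes in each TS/A-E1 tumor (red circles) and 4T1 tumor (blue squares), with the group means as vertical bars. The 4 TS/A-E1 tumors lie above all 4T1 tumors for each of the 6 genes, Cpa3 included, although that gene did not pass the test.

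The 14 genes with the largest rise in TS/A-E1 were Wnt1, Klk10, Cadm1, Efemp1, Sema3c, Lgi2, Prl2c5, Cdkn2a, Dynap, Serpinb2, Aqp5, Igf2bp1, Cdkn2b and Serpinb9b, from 4.81 down to 2.69 on the log2 scale. Several encode secreted proteins or surface molecules. Klk10, a kallikrein-related secreted peptidase, measured 11.06, 11.41, 11.31 and 10.53 in TS/A-E1 and 7.22, 7.19, 7.05 and 7.21 in 4T1 (15.0-fold). The 4T1 tumors agreed closely and all TS/A-E1 tumors were high (log2 difference 3.91, SE 0.44, adjusted p = 1.5e-08). Of 22 kallikrein genes, a family listed after values were seen, 3 passed (13.6%, against 16.3% of all genes), all higher, with Klk6 (1.72) and Klk8 (1.62) the others. M6 tumors had a like Klk10 mean, 11.14.

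Cadm1, a cell adhesion molecule studied as a tumor suppressor, measured 11.27, 10.77, 11.25 and 11.42 in TS/A-E1 and 7.43, 6.92, 7.68 and 7.33 in 4T1 (14.3-fold, adjusted p = 5.3e-12). The 4T1 mean, 7.34, was below that of every other model. Sema3c, a secreted semaphorin, was 13.5-fold higher and Efemp1, a fibulin of the extracellular matrix, 14.2-fold, with 1 4T1 tumor far below the others for Efemp1 (6.15 against 7.81 to 8.39). Serpinb2, an inhibitor of plasminogen activators, was the 1 of 21 matrix protease and inhibitor genes that passed (4.76%, against 16.3% of all genes). Serpinb2 rose by 3.20 (adjusted p = 0.003). Prl2c5 belongs to a family of close prolactin-like copies and its signal may be shared. Igf2bp1, an RNA-binding protein of fetal tissue, was higher by 2.99, and Aqp5, a water channel, by 3.11.

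Cdkn2a and Cdkn2b, adjacent genes for inhibitors of the cyclin D kinases, rose together. Cdkn2a measured 10.40, 10.28, 10.41 and 10.64 in TS/A-E1 and 7.11, 6.94, 6.79 and 6.80 in 4T1 (11.5-fold, adjusted p = 7.6e-10). Cdkn2b measured 10.20, 9.97, 9.98 and 10.33 against 7.20, 7.31, 7.11 and 7.08 (7.71-fold, adjusted p = 5.2e-10). Both genes were low in all 4T1 tumors with little spread. Mtap, a metabolic gene beside them, was not low in 4T1: it measured 11.16, 11.25, 11.15 and 11.26 there and 10.38, 10.53, 10.56 and 10.58 in TS/A-E1 (adjusted p = 0.26). The 4T1 mean of Cdkn2a, 6.91, was below those of the other 10 models, which ran from 7.14 in 6DT1 to 10.56 in HRM-1. Of 13 genes of the p53 pathway and the CDK inhibitors 46.2% passed, against 16.3% of all genes, of which 3 were higher (Cdkn2a, Cdkn2b and Ccng1 at 0.32) and 3 lower (Cdkn2c at -1.07, Ei24 at -0.66 and Cdkn1b at -0.29). Cdkn1b did not pass without TS/A-E1 replicate 2.

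**Figure D3:**
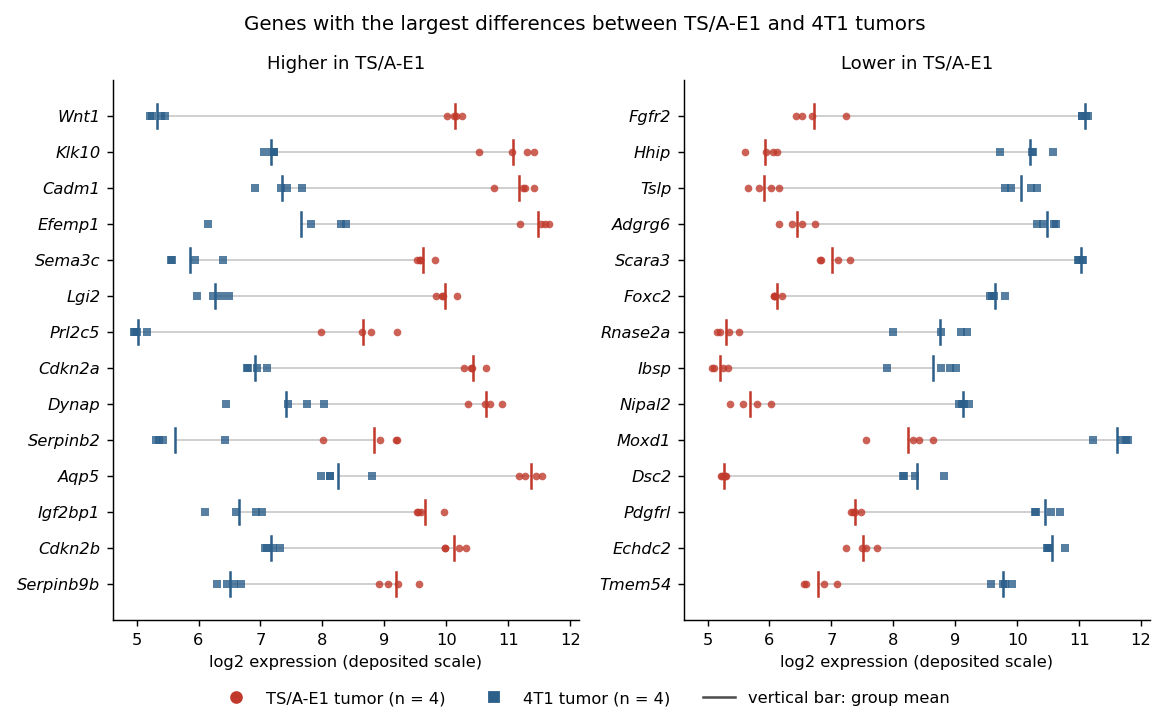
Log2 expression (x axis) in each TS/A-E1 tumor (red circles) and 4T1 tumor (blue squares) for the 14 genes with the largest rise and the 14 with the largest fall in TS/A-E1 among genes that passed without overlap. Vertical bars are group means, and the widest 4T1 spread is that of Efemp1, from 6.15 to 8.39.

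The 14 genes that fell most in TS/A-E1 were Fgfr2, Hhip, Tslp, Adgrg6, Scara3, Foxc2, Rnase2a, Ibsp, Nipal2, Moxd1, Dsc2, Pdgfrl, Echdc2 and Tmem54. Fgfr2, a receptor tyrosine kinase for fibroblast growth factors needed in mammary development, measured 6.52, 7.23, 6.43 and 6.69 in TS/A-E1 and 11.15, 11.05, 11.04 and 11.11 in 4T1. The 4T1 tumors differed by little and all were high, a 20.7-fold difference (log2 difference -4.37, SE 0.70, adjusted p = 1.2e-05). No other model had a mean above 8.15, the value of 6DT1, although single tumors of other models were higher, up to 10.37 in 6DT1. Of 18 FGF ligands and receptors, Fgfr2 and Fgf1 (-0.73) were lower and Fgf4 (0.27) was higher, 16.7% passing as against 16.3% of all genes. The receptors Fgfr1 (0.23), Fgfr3 (-0.04) and Fgfr4 (0.14) did not pass, and Fgf4 did not without TS/A-E1 replicate 1 or 2.

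Hhip, a membrane protein that binds and sequesters Hedgehog ligands, measured 5.61, 6.06, 5.95 and 6.12 in TS/A-E1 and 10.57, 9.73, 10.24 and 10.25 in 4T1. The groups were far apart (19.2-fold, log2 difference -4.27, SE 0.17, adjusted p = 1.1e-21), and the other 10 models had means from 5.19 to 6.23, with D2A1 the highest of them and TS/A-E1 at 5.93. Genes of the Hedgehog pathway, in which Ptch1 receives the ligand and restrains Smo, were then listed with these values known. Of 14 measured, Hhip included, 5 were lower and 1 was higher (42.9% passing, against 16.3% of all genes), a share that the choice of the list with values known partly sets. Smo measured 9.67, 9.63, 9.56 and 9.63 in TS/A-E1 and 11.17, 10.98, 10.92 and 11.17 in 4T1 (log2 difference -1.44, adjusted p = 1.9e-10), and the TS/A-E1 mean was below the lowest other model, 10.48 in Met-1. The co-receptor Boc (-1.51), the ligand-release protein Disp1 (-0.83) and the inhibitor Sufu (-0.19) were also lower. Ptch1, itself a target of the pathway, was higher by 0.63 (adjusted p = 0.00041). The ligands Shh, Ihh and Dhh and the factors Gli1, Gli2 and Gli3 did not pass, with differences from -0.12 to 0.23.

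Other genes of this group have varied roles. Adgrg6, an adhesion G protein-coupled receptor, was 16.5-fold higher in 4T1, and Scara3, a scavenger receptor family member, 16.1-fold. Ibsp, the bone sialoprotein gene, measured 5.11, 5.08, 5.25 and 5.34 in TS/A-E1 and 7.90, 8.91, 8.76 and 9.01 in 4T1 (adjusted p = 4.5e-06). All 4T1 tumors were high for Ibsp, and no other model had a mean above 7.13. Rnase2a, an eosinophil-type ribonuclease with close copies that may share its signal, fell by 3.46, with 4T1 replicate 3 the lowest of its group at 7.99. Nipal2, Moxd1, Pdgfrl, Echdc2 and Tmem54 had log2 differences from -3.44 to -2.99. Echdc2 was low in TS/A-E1 alone: its mean of 7.50 lay below all other models, the lowest of which was R3T at 9.06. Tlx1, a homeobox gene named after its values were seen, was high in TS/A-E1 alone, with a mean of 8.35 against 6.09 in 4T1 and at most 6.34 elsewhere.

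**Figure D4:**
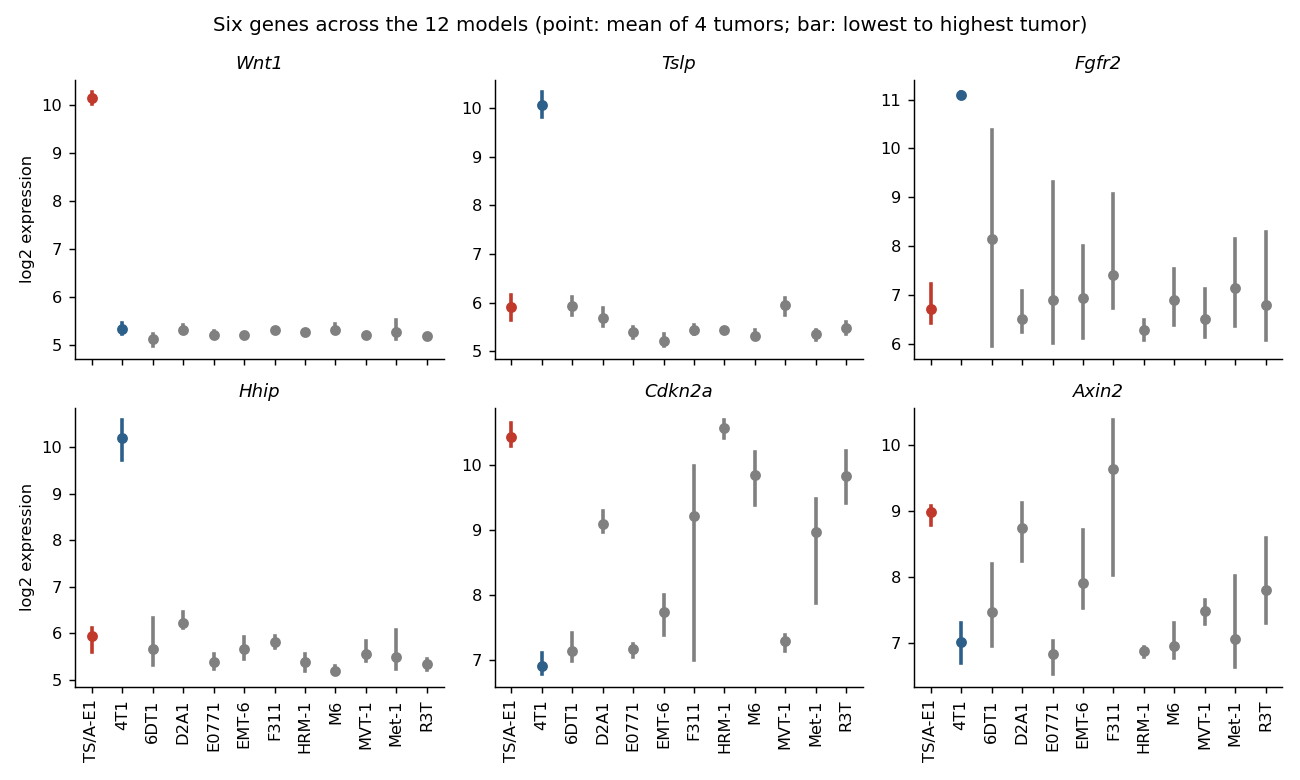
Log2 expression (y axis) of 6 genes in all 12 models, as the mean of 4 tumors (point) and the range from the lowest to the highest tumor (bar), with TS/A-E1 in red and 4T1 in blue. Wnt1 is high in TS/A-E1 alone and Tslp and Hhip in 4T1 alone, whereas Fgfr2, Cdkn2a and Axin2 also reach high levels in tumors of other models.

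Most genes of epithelial identity did not pass. Of 18 luminal genes 2 were lower in TS/A-E1, Cldn4 and Gata3, and none was higher (11.1% passing, against 16.3% of all genes), and the median was -0.12. Cldn4, a tight junction claudin, measured 10.53, 11.12, 10.74 and 10.61 in TS/A-E1 and 12.13, 12.41, 12.34 and 12.23 in 4T1 (log2 difference -1.52, adjusted p = 0.0072). Gata3, the factor of luminal cell fate, measured 9.86, 9.89, 9.97 and 10.11 against 11.32, 11.39, 11.10 and 11.26 (log2 difference -1.31, adjusted p = 0.014). Both genes were lower in every TS/A-E1 tumor. The keratins Krt8 (0.21), Krt18 (-0.10) and Krt19 (0.30) and Cdh1 (0.11) did not pass. Cd24a had the largest difference of the luminal list, -1.69, but did not pass (adjusted p = 0.067). Epcam (-1.20, SE 0.65, adjusted p = 0.24) did not pass either, although its groups did not overlap. It measured 9.98, 10.01, 10.01 and 10.10 in TS/A-E1 and 11.29, 11.29, 11.37 and 10.92 in 4T1. Its SE rests on the spread within all 12 models. None of 12 basal and myoepithelial genes and none of 7 milk protein genes passed.

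Of 23 junction genes 2 were higher and 5 were lower, 30.4% passing against 16.3% of all genes. The desmosomal cadherins fell: Dsc2 measured 5.31, 5.29, 5.22 and 5.23 in TS/A-E1 and 8.35, 8.18, 8.81 and 8.16 in 4T1 (adjusted p = 3.9e-11), and Dsg2 fell by 1.65. The desmosomal plaque gene Pkp2 was higher (1.26) while Pkp3 was lower (-0.50). Ocln, the occludin gene, was higher by 0.94 and Marveld3, a relative, lower by 0.82. Without TS/A-E1 replicate 4 or 4T1 replicate 2, 3 junction genes were lower, and without 4T1 replicate 4, 1 was higher.

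Of 17 regulators and markers of the mesenchymal state, 2 were higher and 3 were lower (29.4% passing, against 16.3% of all genes), with a median of -0.05 that turned to 0.01 with arrays centred on their medians. Foxc2, a forkhead factor linked to mesenchymal change and lymphatic vessels, measured 6.08, 6.09, 6.20 and 6.08 in TS/A-E1 and 9.56, 9.62, 9.60 and 9.79 in 4T1 (11.5-fold, adjusted p = 3.1e-09). Grhl2, which acts the other way by maintaining epithelial genes, was also low in TS/A-E1, at 6.38, 6.77, 6.52 and 6.57 against 9.17, 9.16, 9.31 and 8.94 (adjusted p = 3.8e-07). Ovol2, another epithelial keeper, fell by 0.33 but did not pass under quantile normalization, with arrays centred on their medians, or without TS/A-E1 replicate 3 or 4T1 replicate 2 or 3. Snai2, a repressor of Cdh1, rose by 1.06 and Twist1 by 0.56. Neither of these was called without TS/A-E1 replicate 1 or 3, or without 4T1 replicate 1 or 4, and 1 was called without TS/A-E1 replicate 4 or 4T1 replicate 2. Zeb1 (-0.53), Vim (0.06) and Cdh2 (-0.07) did not pass. Rab25 (-2.53), Ap1m2 (-2.32), Mal2 (-2.63) and Prom2 (-2.14), 4 single genes picked because they fell, were lower in TS/A-E1, which says nothing of a wider group.

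The paper that used these arrays measured the 3 TGF-β isoforms as proteins in additional tumors of the same models, so their transcripts were examined. It compared array signal with protein across the models, and proposes that transcripts are no very reliable stand-in for protein. TGF-β is secreted bound to latency proteins and acts through the receptors Tgfbr1 and Tgfbr2 and the Smad factors. Tgfb1 measured 10.69, 10.70, 10.75 and 10.76 in TS/A-E1 and 10.94, 11.03, 10.88 and 11.09 in 4T1, a difference of -0.26 with no overlap. Tgfb2 measured 7.56, 7.70, 7.55 and 8.08 against 8.01, 8.96, 8.25 and 7.79, and Tgfb3 10.95, 10.54, 10.82 and 11.09 against 11.58, 11.19, 11.08 and 11.34, and both overlapped. None passed limma's test (adjusted p = 0.34, 0.39 and 0.10). The two-sided exact permutation test gave p = 0.0286, 0.0857 and 0.0571, each 0.0857 after adjustment over the 3 genes, where 0.0286 is the smallest p that 4 tumors against 4 allow.

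Several genes that store, release and transmit TGF-β were lower in TS/A-E1. Of 16 genes for the ligands, their latency and activation 4 were lower and none higher (25.0% passing, against 16.3% of all genes). The median was -0.41. The latent TGF-β binding proteins led: Ltbp3 measured 10.85, 10.40, 10.63 and 10.86 in TS/A-E1 and 11.99, 12.00, 11.95 and 12.35 in 4T1 (log2 difference -1.38, SE 0.15, adjusted p = 9e-09). Ltbp2 measured 9.01, 8.71, 8.20 and 8.65 against 10.85, 10.94, 10.54 and 11.04 (log2 difference -2.20, adjusted p = 8.9e-08). Every 4T1 tumor was higher for both. Ltbp4 (-1.18) and the integrin chain Itgb3 (-0.93) were also lower, while Ltbp1 (0.03) did not pass. Of 12 receptors, Smads and co-repressors 6 were lower and none was higher (50.0% passing, against 16.3% of all genes). These were Eng (-0.98), Skil (-0.89), Smad3 (-0.70), Smad7 (-0.54), Tgfbr1 (-0.53) and Ski (-0.25). Smad7 was lost without TS/A-E1 replicate 3 or 4T1 replicate 2. Smad7, Ski and Skil restrain the pathway, whereas Smad3 and Tgfbr1 carry it.

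Of 13 target genes of TGF-β, which share Smad7, Skil and Ltbp2 with the lists above, 4 were lower and 1 was higher (38.5% passing, against 16.3% of all genes). Ccn2, the connective tissue growth factor gene, fell by 0.83 and Cdkn2b was the higher one. The count of lower targets was 2 without TS/A-E1 replicate 3 or 4T1 replicate 2. Among 15 fibroblast and fibrillar matrix genes Col6a1 (-0.84) and Fap (-1.56) were lower and none was higher (13.3% passing, against 16.3% of all genes). The median was -0.43. The lower genes numbered 1 in 6 of the runs that left out a tumor, in which Fap lost its call, and 4 without 4T1 replicate 4. The medians of the fibroblast and TGF-β lists were thus both below 0, and the part of host cell content in these values was not tested. None of 12 endothelial genes passed, although all 12 differences were below 0, the median was -0.46 and 10 did not overlap between groups, as 31.1% of all genes did not. Cdh5, the endothelial cadherin, for instance had means of 10.99 and 11.55 (adjusted p = 0.16).

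Immune genes gave a mixed picture. Of 14 macrophage and monocyte genes 3 were higher in TS/A-E1 and none was lower (21.4% passing, against 16.3% of all genes), with a median of 0.36. These were Cd68 (0.85, adjusted p = 0.00045), Itgam (0.86, adjusted p = 0.018) and Cd14 (0.72, adjusted p = 0.022). Only Cd68 was called without 4T1 replicate 3. Itgam was also lost without TS/A-E1 replicate 1, and Cd14 without TS/A-E1 replicate 4 or 4T1 replicate 1. Adgre1 (0.31), Csf1r (0.01) and Mrc1 (-0.30) did not pass. Of 13 neutrophil genes Ly6g alone passed (7.69%, against 16.3% of all genes). It was higher in TS/A-E1, at 6.39, 6.66, 7.08 and 6.58 against 5.15, 5.14, 5.36 and 4.86 (adjusted p = 1e-07). The neutrophil genes S100a8 (-0.15), S100a9 (-0.03) and Cxcr2 (0.30) did not pass, and Ly6g has close relatives whose transcripts may add to its signal. Mmp9, also of this list, had a lower mean in TS/A-E1 (-1.42) without passing (adjusted p = 0.07). None of 14 T and NK cell genes passed. In the MHC class II group Ciita, its master regulator, was the 1 of 11 that passed (9.09%, against 16.3% of all genes). Ciita differed by 1.15 (adjusted p = 0.03), with overlapping groups, and it lost its call without any of 5 tumors.

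Of 16 interferon-induced genes 4 were higher and 1 was lower (31.2% passing, against 16.3% of all genes), while the median was -0.30. The higher ones are known mainly as targets of interferon γ. Cxcl9 measured 11.77, 11.87, 12.59 and 12.32 in TS/A-E1 and 11.13, 8.89, 10.85 and 10.94 in 4T1 (log2 difference 1.68, adjusted p = 0.0026). Cxcl10 rose by 1.43, Iigp1 by 1.64 and Gbp3 by 0.80. 4T1 replicate 2 was far below the other 4T1 tumors for Cxcl9 and Iigp1. The lower gene was Oas1a (-0.90, adjusted p = 0.012), of the type I interferon response, and others of that response such as Ifit1 (-0.76) and Ifit3 (-0.80) did not pass.

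Among 22 other chemokines, Ccl17, Ccl24, Cxcl9 and Cxcl10 being counted in the groups above, Cxcl5 (1.26), Ccl4 (0.38) and Ccl28 (0.23) were higher and none was lower (13.6% passing, against 16.3% of all genes). Ccl28 was not called without 4T1 replicate 3. Of 14 genes for colony-stimulating factors and the IL-6 family Csf3 alone passed (7.14%, against 16.3% of all genes). Csf3, which encodes G-CSF, the growth factor of neutrophils, measured 6.90, 7.20, 6.77 and 6.76 in TS/A-E1 and 7.55, 8.26, 8.03 and 7.66 in 4T1 (log2 difference -0.97, SE 0.16, adjusted p = 1.1e-05). It was thus higher in every 4T1 tumor, and no other model had a higher mean than the 7.88 of 4T1.

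Of 15 Notch pathway genes 3 were lower and none was higher (20% passing, close to the 16.3% of all genes), with a median of -0.51. The ligand Jag1 measured 9.20, 8.87, 8.71 and 9.11 in TS/A-E1 and 10.26, 10.83, 10.28 and 9.82 in 4T1 (log2 difference -1.32, adjusted p = 5.9e-08). Jag2 fell by 0.77 and the target Heyl by 0.62, though Heyl did not pass under quantile normalization or without TS/A-E1 replicate 1, 3 or 4 or 4T1 replicate 2. The receptors Notch1 (0.19), Notch2 (-0.23) and Notch3 (-0.74) did not pass.

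Of 17 proliferation genes Mki67 alone passed (5.88%, against 16.3% of all genes), lower in TS/A-E1 (log2 difference -0.78, adjusted p = 0.0014). All 17 differences were below 0, and the median was -0.26. Of 13 ErbB receptors and ligands Tgfa was lower (-1.21, adjusted p = 4.6e-05) and Nrg2 higher (0.63), 15.4% passing against 16.3% of all genes. Of 17 glutathione and xenobiotic genes 3 were higher and none was lower (17.6%, close to the 16.3% of all genes): Nqo1, a quinone reductase, at 7.84, 7.40, 7.82 and 7.69 against 6.20, 6.04, 6.26 and 6.07 (adjusted p = 1.3e-05), Gclm (0.74) and Aldh3a1 (1.19). Aldh3a1 lost its call in 6 of 8 runs that left out a tumor. Pfkp (0.68) and Ldha (0.25) were the higher ones of 14 hypoxia and glycolysis genes (14.3%, close to the 16.3% of all genes), and neither was called without 4T1 replicate 1 or 4.

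**Figure D5:**
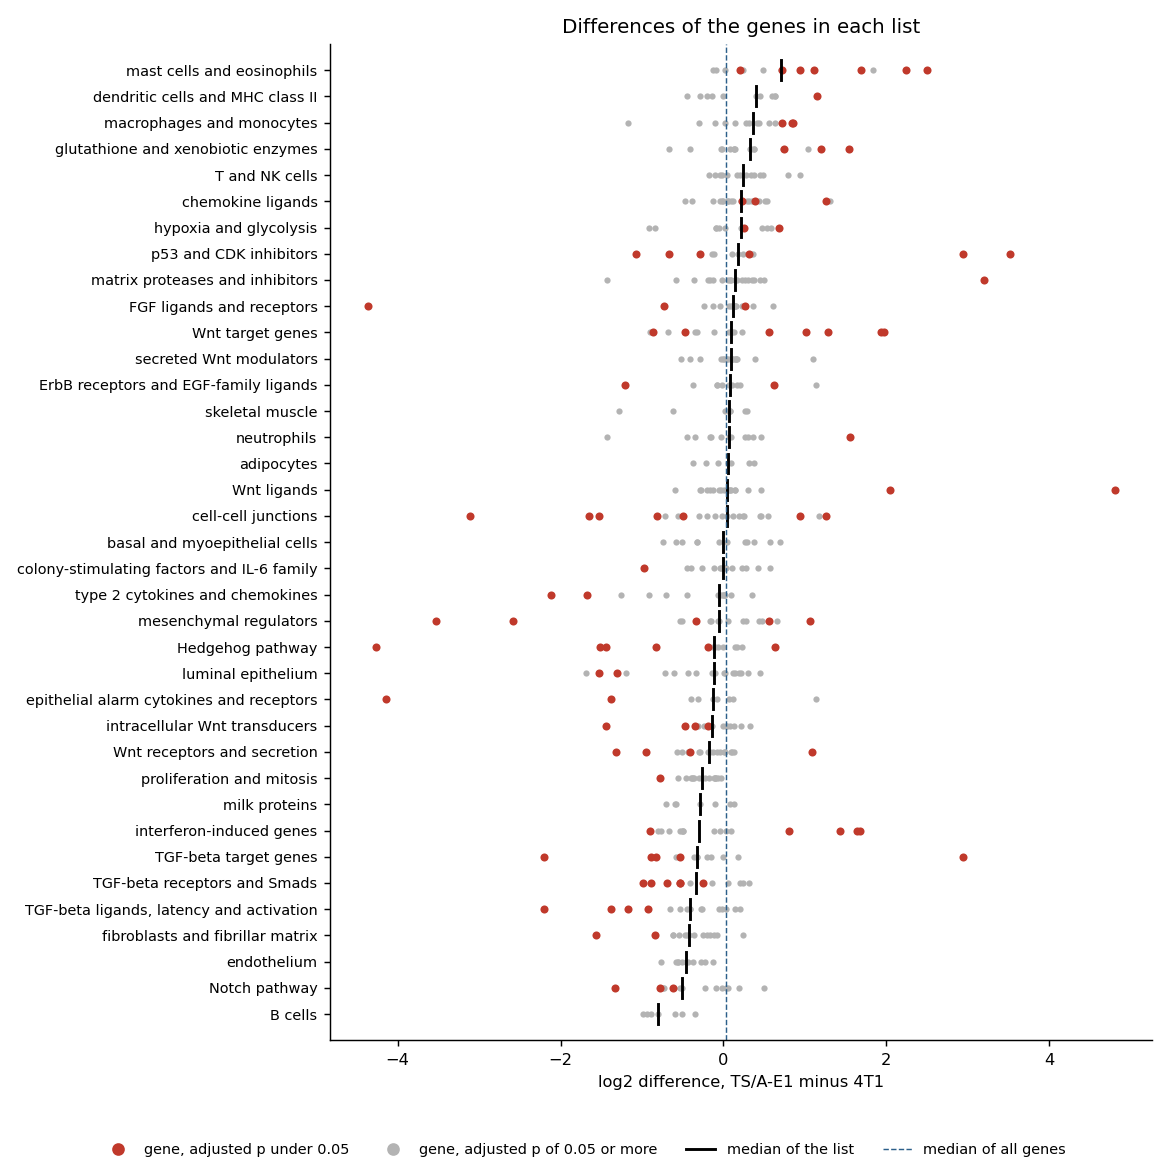
Log2 difference (TS/A-E1 minus 4T1, x axis) of each measured gene in 36 lists and the Hedgehog list, with genes passing the test in red, the list median as a black bar and the median of all genes as a dashed line. Mast cell genes have the highest median, 0.71, and B cell genes the lowest, -0.80, where no gene passed and 4T1 replicate 3 alone was high.

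The array also carries probe sets for microRNA genes, which read the primary transcript or hairpin and not the mature RNA. Of 296 measured, 1 was higher and 17 were lower in TS/A-E1 (6.08% against 16.3% of all genes), with a median of -0.02. Their mean level was 5.48 to 5.61 in the 8 tumors, near the bottom of the scale. When arrays were centred on their medians 7 were higher and 14 lower, and the median was 0.04. Mature sequences are shown for the hairpins with the clearest fall among a pair of gene clusters, chosen after their values were seen, because they tell which share a seed, the stretch of bases 2 to 8 that pairs with target messages. They are taken from RefSeq (GRCm38.p6, plus strand), with the seed in capitals.
miR-100-5p, from Mir100 (chr9:41531437-41531458): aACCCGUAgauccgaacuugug
miR-125b-5p, from Mir125b-1 (chr9:41581940-41581961): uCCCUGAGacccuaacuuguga
miR-181a-5p, from Mir181a-2 (chr2:38852741-38852763): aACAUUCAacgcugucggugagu
miR-181b-5p, from Mir181b-2 (chr2:38853845-38853868): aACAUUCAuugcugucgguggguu
miR-181a and miR-181b share their seed, and miR-100 and miR-125b have seeds of their own.

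Mir100, Mirlet7a-2 and Mir125b-1 lie within the host transcript Mir100hg, and all 4 were lower in TS/A-E1. Mir100hg measured 10.17, 9.89, 10.44 and 10.12 in TS/A-E1 and 11.37, 11.46, 11.61 and 11.67 in 4T1 (log2 difference -1.38, SE 0.26, adjusted p = 0.00017). Mir100 measured 4.66, 4.59, 4.70 and 4.66 against 6.17, 6.13, 6.47 and 5.78 (log2 difference -1.49, adjusted p = 3.2e-14). Mir125b-1 fell by 1.17 and Mirlet7a-2 by 0.53. In all 4 genes each 4T1 tumor exceeded each TS/A-E1 tumor, and 4T1 had the highest mean of the 12 models. Mir181b-2 fell more, from 8.06, 7.88, 8.49 and 7.65 in 4T1 to 5.36, 5.24, 5.32 and 5.42 in TS/A-E1 (6.43-fold, adjusted p = 6.4e-12), and its neighbour Mir181a-2 fell by 0.65. Mir200b, of a family that restrains Zeb factors in epithelial cells, fell by 1.05 (adjusted p = 0.0056).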

How the data were processed

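RNA from each tumor was hybridized to an Affymetrix Mouse Gene 1.0 ST array, and the authors deposited log2 expression values, summarized per transcript cluster, for 35556 clusters on 48 arrays. Neither the normalization nor a genome build is named in the sources used here. No counts are involved, so the number of arrays limits the precision. Platform annotation gave 1 gene for 21789 clusters, several for 1621 (not used) and none for 12146. For a gene with several clusters the one with the highest mean was kept, leaving 19938 genes.

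A linear model with a mean for each of the 12 models was fitted to all 48 arrays in limma 3.58.1 (R 4.3.3), and TS/A-E1 minus 4T1 was tested with Benjamini-Hochberg adjustment over all genes (adjusted p under 0.05). All groups share 1 estimate of spread per gene. Folds are 2 to the power of the difference in mean log2 values. Lists were described by counts and medians, with no set test. The code was tested on simulated data. The exact permutation test used scipy 1.17.1.

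Genes, lists and alternatives were chosen with earlier results of these data known. Named genes were Wnt1, Tslp, the 3 TGF-β isoforms, the 14 largest rises and the 14 largest falls without overlap (predicted symbols left out), up to 4 members per list by smallest p, and members that define a list. Others were named after their values were seen. The 36 lists held 555 entries, and the Hedgehog list was added later. Groups came from the sample titles, where each tumor is called a biological replicate. Alternatives covered normalization, cluster choice, dim genes, variance settings, samples in the fit, the replicate block, and each tumor left out.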

Additional observations from a re-analysis of the deposited data

Results flagged for a closer look

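In 19 of 330 groups of 4 tumors the highest or lowest tumor lay apart from the other 3 by more of the group's range than Dixon's critical value, a share close to the 1 in 20 that chance gives. The values are log2 levels. The widest gap was the mean over the B cell list in 4T1 replicate 3, at 9.34. The same tumor had the highest 4T1 mean over the Wnt target list, 8.47, though the 4T1 tumors spanned little there. 4T1 replicate 2 lay apart for Serpinb2 (6.42), Itgb3 (10.34) and the mean of the TGF-β ligand and latency list (10.39), where it was high, and for Iigp1 (8.18), Cxcl9 (8.89) and Cpa3 (7.82), where it was low. 4T1 replicate 4 was high for Echdc2 (10.77), Ltbp3 (12.35) and Itgam (10.07), and low for Mal2 (8.76) and Epcam (10.92). In TS/A-E1, replicate 2 was high for Igf2bp1 (9.96) and Heyl (7.96). TS/A-E1 replicate 3 was high for Foxc2 (6.20) and the mean of the T and NK cell list (7.77) and low for Prom2 (6.35), and TS/A-E1 replicate 1 was low for Ei24 (10.04).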

How the results depend on the processing

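The 3251 genes became 5969 when the fit held TS/A-E1 and 4T1 alone (3179 shared), 5781 with the replicate block added to that fit, 4931 without the 9 tumors with many adipocyte or B cell transcripts, and 5056 by the methods' t-test with adjustment (7462 without). For the other pairs of BALB/c models alternatives were added after the data were seen. Of these pairs F311 and TS/A-E1 went from 2241 genes to 3572 without those tumors, and EMT-6 and TS/A-E1 from 2986 to 4671. The remaining pairs moved by less than 1.5 times, 4T1 and F311 among them (3565 to 4596). Leaving out each tumor in turn gave 2672 to 2824. The replicate block with all models gave 3247. Same-numbered tumors correlated at -0.18, 0.11, 0.16 and 0.42 in their deviations from the group means and tumors of different numbers at -0.28 to 0.19. As 1 same-numbered pair was below 0.1 and the labels name nothing shared, the tumors were taken to share only a number. Of 2284 alternative values of the 115 named genes that passed, 2204 kept direction and call, 80 lost the call and none reversed. 21 of these genes lost it in at least 1 setting.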
